A study of Mus musculus with 41 samples.

Results

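The genes described here are 41 chemokine genes, 32 ligands and 9 receptors, chosen by name from the RNA count table of a mouse mesothelioma series. All 41 were among the 27197 genes of the table. They were read in 6 tumor cell lines and 9 whole tumors, and the question was which of the ligands tumor cells make themselves. The 3 BNC lines (JB81, JB91 and JB97) were labelled Bap1-/-;Nf2-/-;Cdkn2ab-/- and the 3 NC lines (JB84, JB87 and JB93) Nf2-/-;Cdkn2ab-/-, so both groups lacked Nf2 and Cdkn2ab. BNC and NC thus differ by the deletion of Bap1, which encodes a nuclear deubiquitinase. Tumors arose in mice of mixed FVB, Bl6 and 129Ola background, between 6 and 8 weeks old at induction, after injection into the chest cavity of an adenovirus that expresses Cre from the CMV promoter. That promoter is active in many cell types, so it does not limit recombination to mesothelial cells. The mice also received cyclosporine A, an immunosuppressant, and both genotypes lacked Ink4a and Ink4b in the germline, with p19Arf deleted by Cre. The lines were early-passage cultures in DMEM/F12 with hydrocortisone, EGF and serum, so their levels are those of cells in that medium. The tumors were whole tissue, labelled as 5 BNC and 4 NC tumors, but the names of their columns in the table do not show which is which. They were therefore used as 1 group of 9, taken as the tumors because the 6 other columns carry the names of the lines. T22 stands for the tumor column that has a number but no name. The labels do not say whether lines of a group came from different mice, so p-values measure the spread between these samples.

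Chemokines are small secreted proteins that bind G protein-coupled receptors on leukocytes and other cells and direct their migration. CXC ligands with the ELR motif recruit neutrophils through Cxcr2, interferon-induced CXC ligands recruit activated T cells through Cxcr3, and most inflammatory CC ligands act on monocytes, macrophages, eosinophils or lymphocytes. Cxcl12 binds Cxcr4 and the atypical receptor Ackr3, which takes up the ligand without classical G protein signaling. Mesothelioma tissue is typically rich in macrophages.

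The library totals lay between 8158740 and 23936922 counts. Values below are CPM (counts per 1000000 counts, with libraries scaled by the TMM method over all 15), and a gene is called read in a library at more than 3 counts, which is 0.124 to 0.231 CPM in the lines and up to 0.856 CPM in the shallowest tumor, B1. In B1, 24.7% of the counts fell on Gm42418, a gene that overlaps ribosomal RNA sequence. Bap1 itself was at 40.3, 41.4 and 36.9 CPM in the BNC lines and 57.1, 56.8 and 60.3 CPM in the NC lines (log2 fold change -0.57, SE 0.13, edgeR adjusted p = 0.039), lower in all 3 BNC lines but not past the threshold. JB81 and JB91 hardly differed (5 of 10511 genes by more than 2-fold), nor did JB84 and JB93 (8 of 10545), whereas other pairs within a group differed in 1474 to 2390 genes. The comparison of the lines was therefore also made with each of those pairs summed to 1 library. Leukocyte markers (Ptprc, Cd52, Coro1a and Laptm5) summed to at most 0.694 CPM in every line and to 351 to 1377 CPM in the tumors. The 8 mesothelial markers summed to 127, 127 and 667 CPM in JB81, JB91 and JB97 and to 2857, 2159 and 3016 CPM in JB84, JB87 and JB93, and in JB81 and JB91 nearly all of it was Wt1, with Msln, Krt8, Krt18, Krt19 and Pdpn each under 1 CPM. The 4 skeletal muscle markers summed to 172 to 41341 CPM in the tumors. Lyz2, on the macrophage list, was at 34.8, 38.8 and 1.15 CPM in the BNC lines and at most 0.231 CPM in the NC lines. On the same list, Csf1r was at 3.26, 3.28 and 0.701 CPM in the BNC lines and 0, 0.926 and 0 CPM in the NC lines. Cd68 was at 2.40 to 4.12 CPM over the lines. Mrc1 had at most 12 counts in any line and Adgre1 and Cd163 at most 1, while C1qa and C1qb were at 0 in every line.

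Of the 32 ligands, 4 (Cxcl12, Cx3cl1, Ccl9 and Ccl25) were at 1 CPM or more in all 6 lines. Another 14 were read in at least 1 line, and 14 had at most 3 counts in every line, 10 of them with no count at all. In the tumors, 17 ligands and 6 receptors were at 1 CPM or more in all 9. Per kilobase of exon, the order by the median of the 6 lines was Cxcl12 (104 CPM per kb), Ccl7 (4.703), Cx3cl1 (3.26), Ccl9 (2.93), Ccl2 (2.66) and Ccl25 (0.754), and each of these overlapped the next in its range over the 6 lines.

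**Figure D1:**
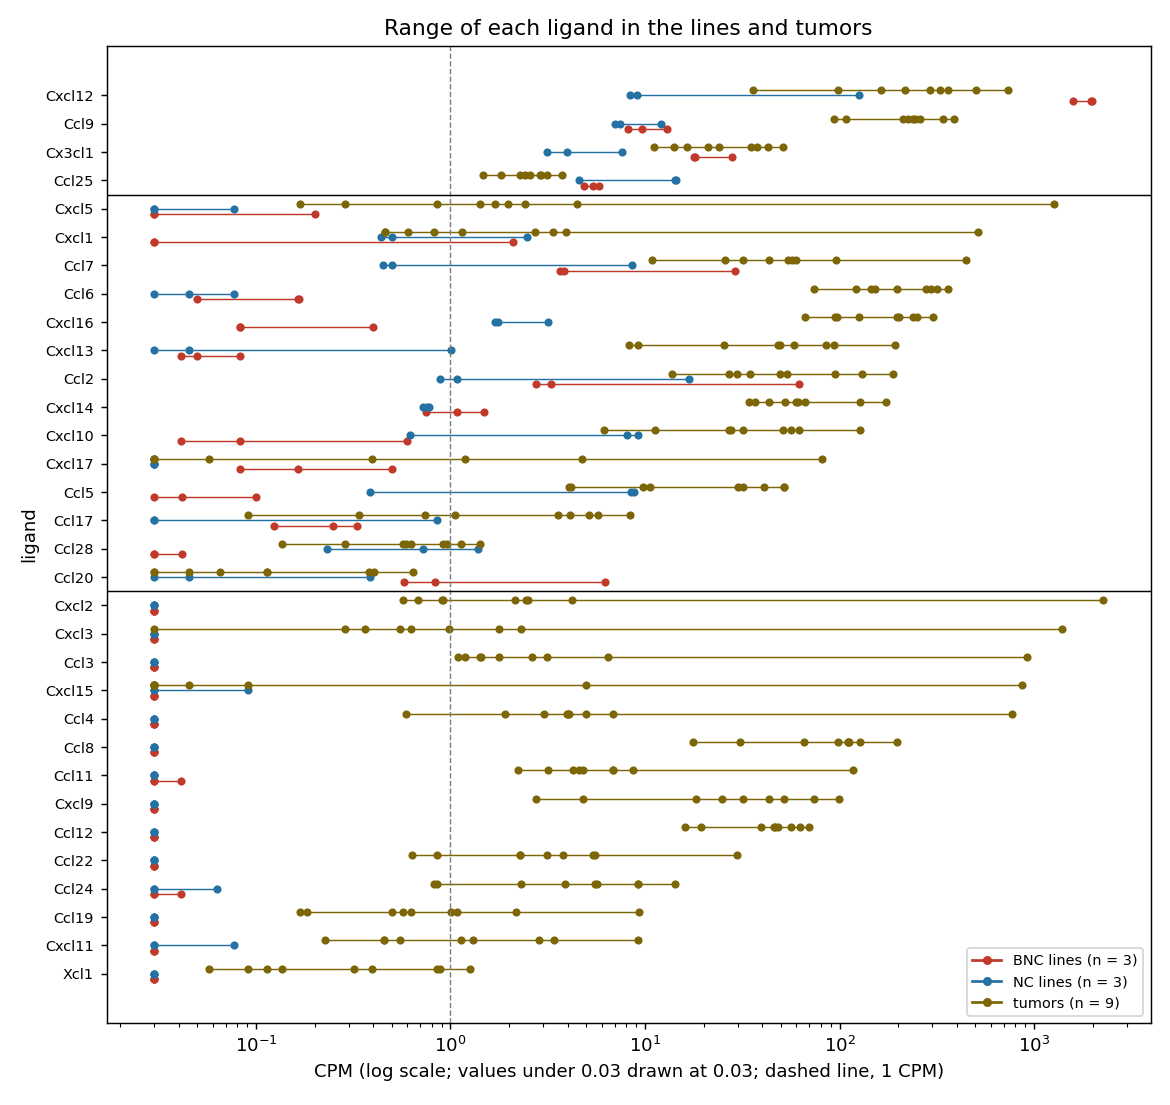
CPM of each of the 32 ligands (log axis) in the 3 BNC lines, 3 NC lines and 9 tumors, 1 point per library, with lines from the lowest to the highest library of a group. Horizontal rules separate the 4 ligands at 1 CPM or more in every line, the 14 read in some lines and the 14 with at most 3 counts in every line.

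Cxcl12, which attracts and retains Cxcr4-bearing cells, was the most abundant ligand of the BNC lines. It was at 1979, 1973 and 1582 CPM in JB81, JB91 and JB97 and at 9.12, 125 and 8.33 CPM in JB84, JB87 and JB93. All 3 BNC lines were higher than every NC line, and JB87 was the highest NC line. The mean was 1845 ± 227 CPM (SD, n = 3) in the BNC lines and 47.6 ± 67.3 CPM (SD, n = 3) in the NC lines (log2 fold change 5.27, SE 1.27, edgeR adjusted p = 0.0454), past an adjusted p of 0.05 but not past 0.01. Without JB87 the log2 fold change was 7.72 (edgeR adjusted p = 3.45e-04), and DESeq2 gave 5.29 (adjusted p = 5.34e-07). With close pairs of lines summed it was 4.72 (edgeR adjusted p = 0.327). On the scale of summed CPM per kb over the 32 ligands, Cxcl12 made up 93.5%, 92.9% and 63.6% of the ligand RNA in the BNC lines and 5.18%, 28.5% and 4.49% in the NC lines. In the tumors its level was 35.8 CPM in the lowest tumor, 293 CPM at the median and 731 CPM in the highest, below every BNC line. The fibroblast marker Col1a1 was at 5749, 6349.9 and 3494 CPM in the BNC lines and 655, 3692 and 767 CPM in the NC lines. JB87 thus lay with the BNC lines for this gene. On the same list, Pdgfra was also lowest in JB84 and JB93, but its groups overlapped. Dcn was instead lowest in JB81 and JB91. It was at 2.36, 2.49 and 49.4 CPM in the BNC lines and 6.103, 20.99 and 5.61 CPM in the NC lines. Lum had at most 1 count in any line. The fibroblast list as a whole therefore did not separate the groups. The mesothelial marker sum was lower in the BNC lines. The part of these markers in the Cxcl12 difference was not tested.

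Cx3cl1, a membrane-anchored ligand for Cx3cr1 on monocytes and NK cells, was at 18.1, 17.95 and 27.98 CPM in the BNC lines and 3.15, 7.64 and 3.98 CPM in the NC lines (log2 fold change 2.10, SE 0.40, edgeR adjusted p = 0.0274). The groups did not overlap, and the difference passed 0.05 but not 0.01. Ccl9, a monocyte and dendritic cell attractant that binds Ccr1, was nearly level over the lines at 8.22, 9.62 and 12.9 CPM in the BNC lines and 7.05, 12.04 and 7.47 CPM in the NC lines. The interval of its log2 difference was -0.56 to 0.94, and the groups overlapped. Ccl25, a thymus and gut chemokine that binds Ccr9, was at 5.83, 4.85 and 5.41 CPM in the BNC lines and 14.5, 4.55 and 14.3 CPM in the NC lines (log2 fold change -1.07, SE 0.46, edgeR adjusted p = 0.157). JB84 and JB93 were the high lines, and JB87 was as low as the BNC lines.

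**Figure D2:**
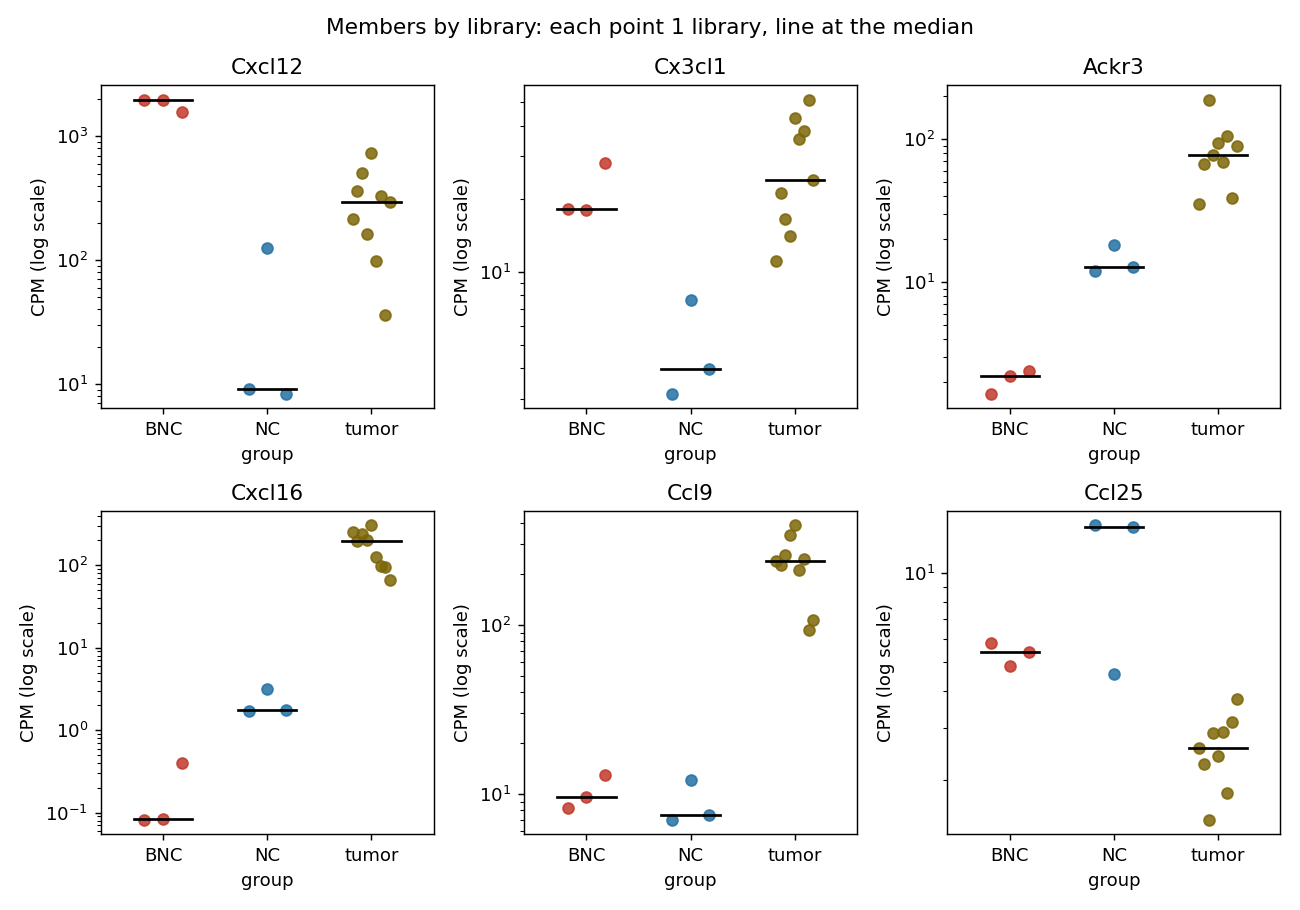
CPM on a log axis for Cxcl12, Cx3cl1, Ackr3, Cxcl16, Ccl9 and Ccl25 in BNC lines, NC lines and tumors, 1 point per library with a bar at the group median. The BNC lines lie above the NC lines for Cxcl12 and Cx3cl1 and below them for Ackr3 and Cxcl16, and the tumors lie below every line for Ccl25.

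Ccl2 and Ccl7, neighbouring genes whose products recruit Ccr2-bearing monocytes, were read in all 6 lines and varied together. Ccl2 was at 2.77, 3.28 and 61.9 CPM in JB81, JB91 and JB97 and at 0.881, 16.8 and 1.09 CPM in JB84, JB87 and JB93. Ccl7 was at 3.68, 3.86 and 29.2 CPM in the BNC lines and 0.503, 8.56 and 0.452 CPM in the NC lines. In each genotype 1 line was high, JB97 and JB87, and the groups overlapped. The test found no call (edgeR adjusted p = 0.451 for Ccl2 and 0.361 for Ccl7), with log2 intervals of -2.21 to 5.84 and -1.54 to 5.39 that include large differences in either direction.

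Ccl5 and Cxcl10, interferon-inducible ligands that attract T cells, were read mainly in the near-identical NC lines JB84 and JB93. Cxcl10 was at 0.0413, 0.0829 and 0.601 CPM in the BNC lines and 8.05, 0.617 and 9.23 CPM in the NC lines (log2 fold change -4.68, SE 1.34, edgeR adjusted p = 0.0654). Ccl5 had 0, 1 and 2 counts in the BNC lines and 135, 5 and 194 counts in the NC lines, and did not pass the filter on low counts. In the same pair of lines the interferon regulators Irf7 and Irf9 were also high. Irf7 was at 108, 3.16 and 121 CPM in JB84, JB87 and JB93 and 0.578, 0.705 and 0.4004 CPM in the BNC lines, and Irf9 was at 90.7, 9.03 and 90.3 CPM in the NC lines and 8.88, 9.04 and 8.76 CPM in the BNC lines. Neither passed the threshold between genotypes (edgeR adjusted p = 0.0302 and 0.0654), and JB87 was low for all 4 genes. The promoter stretch of Cxcl10 is printed because it holds letters that interferon and NF-κB factors are known to bind. It runs from 233 to 75 bases before the start site (chr5:92348964-92349122, minus strand, GRCm38.p6, RefSeq), and capitals mark a match to the interferon-response letters GAAANNGAAA and 2 matches to the NF-κB letters GGGNNNTTCC.
Cxcl10: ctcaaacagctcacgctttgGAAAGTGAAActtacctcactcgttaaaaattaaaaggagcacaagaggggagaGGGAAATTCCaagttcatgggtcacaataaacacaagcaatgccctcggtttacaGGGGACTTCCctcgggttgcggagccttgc
Those letters, read on both strands, were in 3.44% and 5.56% of all 32851 promoter windows of 300 bases. Of the 31 windows of the 30 members that had one, 3 held the interferon-response letters (Ccl19, Cxcl10 and Cxcl14), 7 the NF-κB letters and 2 (Ccl17 and Cxcl14) the letters TTCNNNGAA, or 6.45%, against 8.3% of all windows. A match describes the sequence and is not a binding site. No window was at hand for Cxcl5, Cxcl11, Ccl5, Ccl11, Ccl2, Ccl24, Cxcl16, Cxcl17, Ccl4, Ccr7 and Ccl7.

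Cxcl16, a transmembrane ligand for Cxcr6, had 2, 2 and 8 counts in the BNC lines and 27, 41 and 39 counts in the NC lines, or 0.0826, 0.0829 and 0.4004 and 1.699, 3.16 and 1.76 CPM. The groups did not overlap (log2 fold change -3.57, SE 0.72, edgeR adjusted p = 0.0302), and the difference passed 0.05 but not 0.01. Ccl20, the ligand of Ccr6, was at 0.578, 0.829 and 6.21 CPM in the BNC lines and 0, 0.386 and 0.0452 CPM in the NC lines (edgeR adjusted p = 0.101), with JB97 as the high line. Cxcl14 was read in all 6 lines at 0.724 to 1.49 CPM and its groups overlapped. Cxcl1 was at 2.102 CPM in JB97, 0.4404, 2.47 and 0.498 CPM in the NC lines and 0 in JB81 and JB91. Ccl28, a mucosal ligand of Ccr10, had 0, 1 and 0 and 22, 3 and 16 counts. The others of this class (Ccl6, Ccl17, Cxcl5, Cxcl13 and Cxcl17) had at most 13 counts in every line, and Ccl6 passed the mark of 3 counts only by 1, in JB81 and JB91.

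Ackr3 was the single receptor at 1 CPM or more in every line and the single member called between the genotypes. It was at 1.65, 2.197 and 2.402 CPM in JB81, JB91 and JB97 and at 12.02, 18.1 and 12.7 CPM in JB84, JB87 and JB93. Every BNC line was below every NC line, and the means were 2.08 ± 0.387 CPM (SD, n = 3) and 14.3 ± 3.36 CPM (SD, n = 3) (log2 fold change -2.79, SE 0.29, edgeR adjusted p = 0.00885). The names of the line columns start with 1 of 2 numeric prefixes, whose meaning is not stated. Within each prefix, log2(CPM + 1) of Ackr3 differed between BNC and NC by -2.57 and -2.05, and that of Cxcl12 by 5.79 and 7.57. The near-identical pairs, JB81 with JB91 and JB84 with JB93, are each split over the 2 prefixes, so these differences are not independent of each other. Cxcr4, the signaling receptor of Cxcl12, had 5, 3 and 6 counts in the BNC lines and 0, 0 and 1 in the NC lines, at most 0.3003 CPM. Ccr7, the lymph node homing receptor, had 7, 1 and 21 counts in the NC lines and 0 in the BNC lines. Ccr1, Ccr2, Ccr3, Cxcr2, Cxcr3 and Cx3cr1 had at most 4 counts in any line.

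The threshold for a call was an adjusted p under 0.01 and more than a 2-fold change. Of the 41 members, 12 passed the filter on low counts in the comparison of the lines and 1, Ackr3, was called, against 1.10% of the 12376 genes tested in either direction. The median log2 fold change of those 12 was 0.37 and that of all genes tested -0.0023. At an adjusted p under 0.05, 4 members were called (Cxcl12 and Cx3cl1 higher and Cxcl16 and Ackr3 lower in BNC lines), against 11.6% of all genes. DESeq2 called 7 members, those 4 and Ccl5, Ccl28 and Cxcl10, against 14.8% of 13638 genes. With JB81 and JB91 summed and JB84 and JB93 summed, edgeR called no gene (5 of 13 members tested and 1508 of 12859 genes had an unadjusted p under 0.05) and DESeq2 called 3 members. The share of all genes that DESeq2 called on these sums is not given here, so its 3 is not a result about the members. With the pairs summed the log2 fold change of Ackr3 was -2.85 (edgeR adjusted p = 0.293). Leaving out JB81, JB91, JB84 or JB93 left 0 members called, leaving out JB97 gave 2, against 7.57% of all genes tested, and leaving out JB87 gave 6, against 19.7%. Without JB97 or JB87 a group was only its near-identical pair, so those calls take near copies as replicates.

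Among other genes of the pathway, 1 of 9 tested signaling genes was called between the lines: Arrb1, encoding a β-arrestin that binds chemokine receptors, was lower in BNC lines at 17.8, 14.7 and 18.4 CPM against 53.5, 47.1 and 53.4 CPM (log2 fold change -1.62, SE 0.15, edgeR adjusted p = 0.00716). By edgeR no gene was called among the 12 NF-κB genes, 11 interferon regulators, 7 processing and binding genes and 1 other ligand tested, of which 2, 7, 4 and 1 had an unadjusted p under 0.05, against 35.6% of all genes tested. Dpp4, which cleaves and inactivates Cxcl12 and other chemokines, had the smallest p of its list, with 0.0413, 0 and 0.05005 CPM in the BNC lines and 1.32, 1.08 and 0.814 CPM in the NC lines (edgeR adjusted p = 0.0156).

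**Figure D3:**
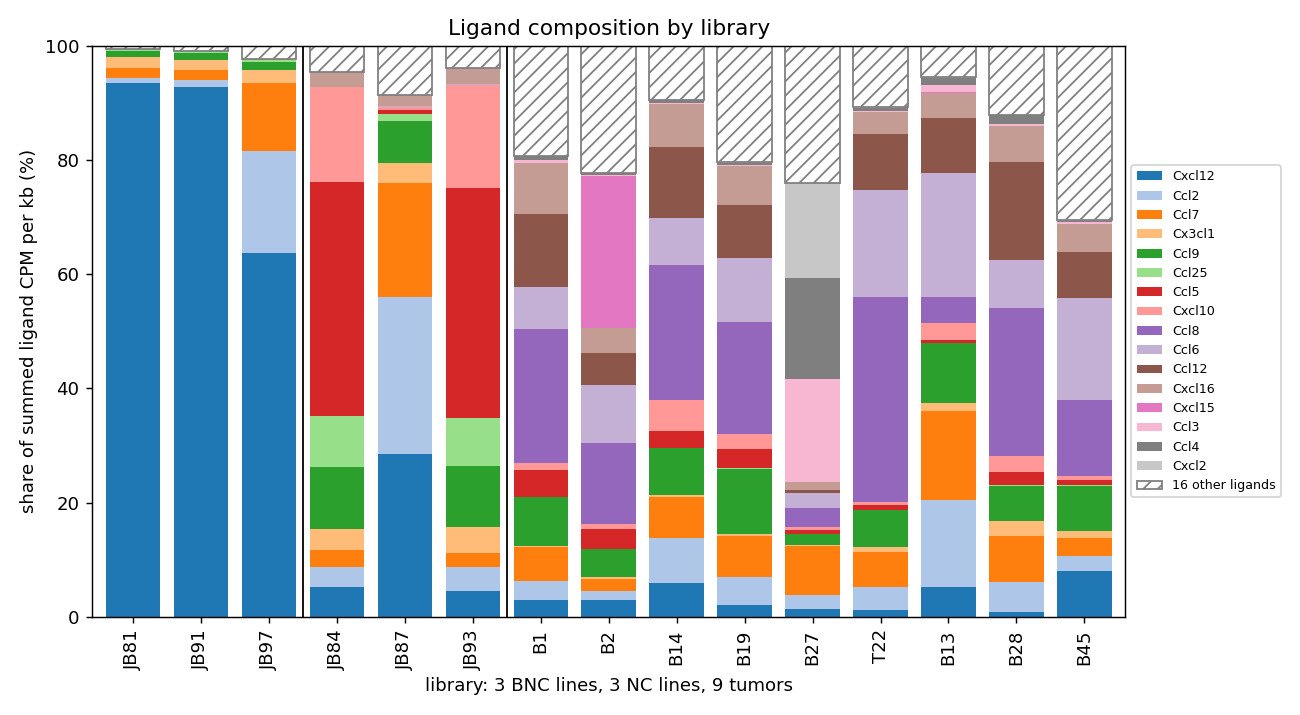
Share of each ligand in the summed CPM per kb of the 32 ligands, in percent, by library. Cxcl12 fills most of the bars of the BNC lines, Ccl5 and Cxcl10 are large in JB84 and JB93, and Ccl8, Ccl6 and Ccl12 appear in the tumors.

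In the tumors the summed ligand level was 449 to 6603 CPM per kb, against 21.5 to 304 in the lines, and no tumor had Cxcl12 as its leading ligand. Ccl8, a monocyte attractant, led in 5 tumors, Ccl6 in 2, Cxcl15 in B2 and Ccl3 in B27. Of the 39 members tested between tumors and lines, 30 were higher in the tumors, against 28.2% of the 15675 genes tested, and 1 was lower, against 11.5%. In the lines alone the filter on low counts passed 12 members and 12376 genes. Most of the 39 thus entered the test through their tumor counts, where a higher level in tumors was nearly set beforehand. The 2 shares are therefore not like for like. The tumor columns carry 1 numeric prefix and the lines 2 others, so whatever the prefix marks and the kind of sample cannot be told apart. In bulk samples, fewer cells of a type and less RNA per cell cannot be told apart either. The median log2 fold change was 4.37 over the 39 members, with the 17 at or under 3 counts in every line set at the bound that 3 counts allow. As fitted, without such bounds, it was 8.05 over the members and 0.38 over all genes. The 4.37 and the 0.38 are therefore not like for like, and the 8.05 includes folds over line counts near 0. Cxcl15 and Xcl1 were not tested, and the 8 members not called were Ccl2, Ccl17, Ccl20, Cxcl1, Cxcl2, Cxcl3, Cxcl12 and Cxcl17.

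The 5 ligands Ccl8, Ccl12, Cxcl9, Ccl11 and Ccl3 had at most 3 counts in every line and 1 CPM or more in all tumors, and their tumor values are here set against the floor of 3 counts in the shallowest line. Ccl8 was at 0 counts in all 6 lines and at 17.7 CPM in the lowest tumor, 110.4 CPM at the median and 198 CPM in the highest, a median at least 477-fold higher. Ccl12, a mouse ligand of Ccr2, was likewise at 0 in the lines and at 16.04 CPM in the lowest tumor, 46.7 CPM at the median and 69.95 CPM in the highest (at least 202-fold). Cxcl9, an interferon-gamma-induced ligand of Cxcr3, was at 0 in the lines and at 2.74 CPM in the lowest tumor, 31.95 CPM at the median and 98.9 CPM in the highest (at least 138-fold). Ccl11, the eosinophil attractant eotaxin, had 1 count in JB81 and was at 2.23 CPM in the lowest tumor, 4.78 CPM at the median and 118 CPM in the highest (at least 20.6-fold). Ccl3, a ligand of Ccr1, was at 0 in the lines and at 1.095 CPM in the lowest tumor, 1.77 CPM at the median and 915 CPM in the highest (at least 7.64-fold). Each was called higher in tumors (edgeR adjusted p between 1.87e-07 and 0.0087). The 5 were picked by these same levels in lines and tumors, so their calls add nothing to that choice. None of them passed the filter on low counts in the lines alone. The call of Ccl3 was lost when any 1 line was left out, with close pairs of lines summed (edgeR adjusted p = 0.0247), and against the BNC or the NC lines alone (0.0447 and 0.0551). Of the other 9 ligands of this class, Ccl4, Ccl19, Ccl22, Ccl24 and Cxcl11 were called higher with tumor medians of 0.624 to 5.54 CPM. As for Ccl3, the call of Ccl4 was lost when any 1 line was left out and with the pairs summed (edgeR adjusted p = 0.0182). It was also lost against the BNC or the NC lines alone (0.0335 and 0.0419). That of Ccl19 was lost against the NC lines alone (edgeR adjusted p = 0.0122). Reads of Ccl19 are uncertain, because the annotation holds another gene of the same name on an unplaced scaffold.

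Several ligands that were read in at least 1 line were far higher in the tumors. Ccl9 was at 7.05 to 12.9 CPM in the lines and at 93.3 CPM in the lowest tumor, 238 CPM at the median and 387 CPM in the highest (log2 fold change 4.62, SE 0.36, edgeR adjusted p = 2.14e-07). Cxcl16 was at 66.3 CPM in the lowest tumor, 196 CPM at the median and 304 CPM in the highest (log2 fold change 8.09, SE 0.55, edgeR adjusted p = 5.97e-08), and Cxcl14 at 34.1 CPM in the lowest tumor, 59.97 CPM at the median and 174 CPM in the highest (log2 fold change 6.31, SE 0.48, edgeR adjusted p = 1.62e-07). For all 3 every tumor was higher than every line. Ccl6, a macrophage-derived attractant, was at 74.02 CPM in the lowest tumor, 197 CPM at the median and 362 CPM in the highest against at most 0.166 CPM in the lines, and Cxcl13, the B-cell follicle chemokine, was at 8.28 CPM in the lowest tumor, 49.4 CPM at the median and 192 CPM in the highest against at most 1.003. In the lines Ccl6 had at most 4 counts and Cxcl13 passed 3 counts only in JB87, so both were at or near the floor there. Cxcl10 was at 6.12 CPM in the lowest tumor, 31.9 CPM at the median and 127 CPM in the highest (log2 fold change 5.22, SE 0.86, edgeR adjusted p = 1.50e-04). Ccl5 was at 4.08 CPM in the lowest tumor, 30.1 CPM at the median and 52.1 CPM in the highest (edgeR adjusted p = 1.82e-04). Both were called, but against the NC lines alone their adjusted p was 0.0285 and 0.0838 with edgeR. Ccl7, at 10.8 CPM in the lowest tumor, 54.1 CPM at the median and 448 CPM in the highest, was called higher (log2 fold change 3.90, SE 1.01, edgeR adjusted p = 0.00411), but neither against the BNC lines alone (edgeR adjusted p = 0.0684) nor against the NC lines alone (0.0148), while Ccl2, at 13.8 CPM in the lowest tumor, 49.6 CPM at the median and 188 CPM in the highest, missed the threshold (log2 fold change 2.55, SE 0.90, edgeR adjusted p = 0.0235).

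Cx3cl1 was at 11.1 CPM in the lowest tumor, 23.9 CPM at the median and 51.2 CPM in the highest, higher than the mean of the lines (log2 fold change 1.47, SE 0.36, edgeR adjusted p = 0.00308) but not called against the BNC lines alone (log2 fold change 0.41, edgeR adjusted p = 0.455). Ccl28 was called higher with 0.137 to 1.42 CPM in tumors, while against the NC lines alone its log2 fold change was -0.058 (edgeR adjusted p = 0.953). Ccl25 was the single member called lower in the tumors, at 1.47 CPM in the lowest tumor, 2.57 CPM at the median and 3.75 CPM in the highest, against 4.55 to 14.5 CPM in the lines (log2 fold change -1.57, SE 0.30, edgeR adjusted p = 4.38e-04). Every tumor was below every line, and against the BNC lines alone the change was -1.05 on the log2 scale (edgeR adjusted p = 0.0242). Cxcl12 was not called against the mean of the lines (log2 fold change 0.04, SE 0.64, edgeR adjusted p = 0.966). Against the BNC lines alone it was lower in the tumors (log2 fold change -2.60, edgeR adjusted p = 0.00915), and against the NC lines alone the log2 fold change was 2.68 (edgeR adjusted p = 0.0348). Ccl20 had 0.638 CPM at most in the tumors (edgeR adjusted p = 0.187), below JB97, and Ccl17, a ligand of Ccr4, was at 0.09104 to 8.34 CPM (edgeR adjusted p = 0.0107).

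The 9 receptors were all called higher in the tumors, but the call of Cxcr2 was lost with close pairs of lines summed (edgeR adjusted p = 0.0199) and against the BNC or the NC lines alone (0.0246 and 0.0325), and that of Ccr7 against the NC lines alone (0.0182). In the lines alone only Ackr3 passed the filter on low counts. The other receptors were tested through their tumor counts, so the direction of their calls was nearly set beforehand. Ackr3 was at 35.4 CPM in the lowest tumor, 76.9 CPM at the median and 189 CPM in the highest, above every line (log2 fold change 3.96, SE 0.38, edgeR adjusted p = 1.28e-06). Ccr2, the monocyte receptor, was at 46.1 CPM in the lowest tumor, 103 CPM at the median and 188 CPM in the highest, and Ccr1 at 24.5 CPM in the lowest tumor, 91.4 CPM at the median and 262 CPM in the highest (a median at least 395-fold higher). Cx3cr1 was at 4.83 CPM in the lowest tumor, 64.5 CPM at the median and 278 CPM in the highest, with B27 far below the others. Cxcr4 was at 16.7 CPM in the lowest tumor, 25.4 CPM at the median and 116 CPM in the highest. Cxcr3, the receptor of Cxcl9 and Cxcl10 on T cells, was at 0.546 to 9.98 CPM, Ccr7 at 1.08 to 19.4 CPM and Ccr3, of eosinophils, at 0.546 to 3.14 CPM. The 8 macrophage markers summed to 1886 to 8159.5 CPM in the tumors and at most 44.7 CPM in the lines. The 5 T-cell markers summed to 4.37 to 178 CPM in the tumors and at most 0.0415 CPM in the lines. Of these markers, C1qa, C1qb and Cd3e had no count in any line, while Lyz2, Csf1r, Cd68 and Mrc1 were read in some lines or all. The part of these markers in the receptor and ligand differences was not tested. Among the genes beside the members, 4 of 4 other ligands tested and 9 of 9 other receptors tested were higher, with Pf4 at 17.1 to 81.2 CPM and Ackr1 at 1.23 to 29.1 CPM. Of these lists, 1 other ligand and 0 other receptors passed the filter on low counts in the lines alone. Signaling genes divided into 8 higher, 1 lower and 5 not called, with Dock2 and Pik3cg, which act in leukocyte migration, at no more than 0.0772 CPM in lines. NF-κB genes divided into 5 higher, 1 lower (Rel) and 6 not called, interferon regulators into 7 higher and 5 not called, and processing and binding genes into 3 higher and 5 not called. Over all genes tested, 28.2% were higher and 11.5% lower.

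**Figure D4:**
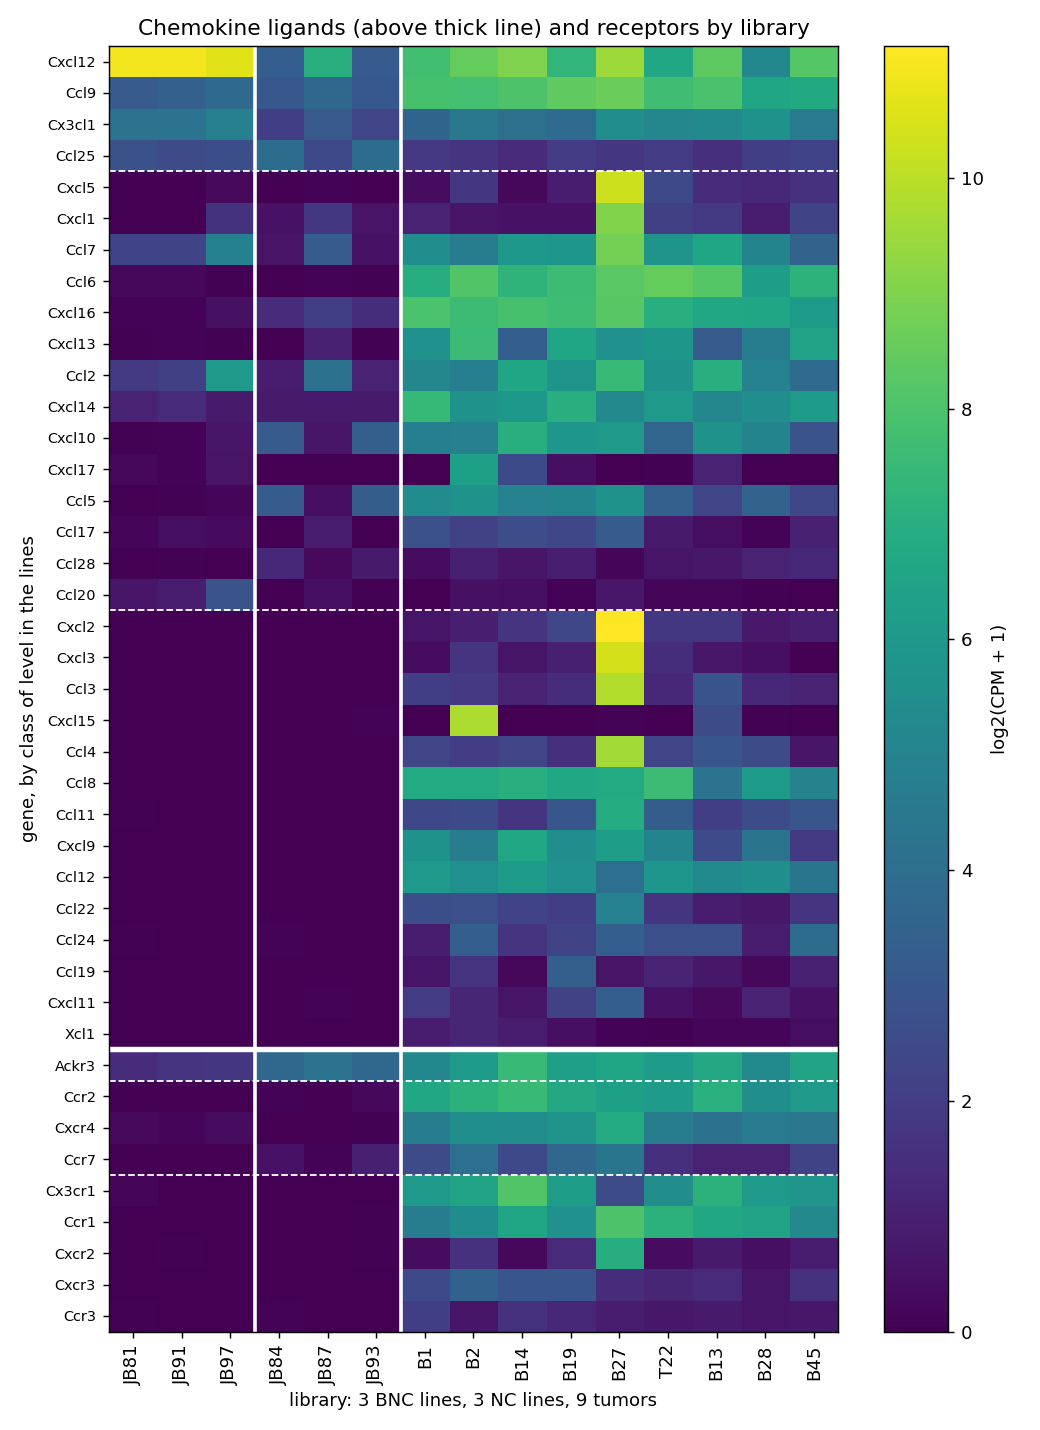
log2(CPM + 1) of the 41 members (rows, ligands above the thick rule and receptors below it, by class of level in the lines) in 15 libraries (columns). The darkest cells of the lines stand for 0 to 3 counts, and the brightest cells of B27 and B2 stand for the members that are high in 1 tumor.

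B27 and B2 stood apart from the other tumors. In B27 the neutrophil attractants Cxcl1, Cxcl2, Cxcl3 and Cxcl5 were at 518, 2264, 1384 and 1272 CPM, while the highest of the other 8 tumors had 3.93, 4.19, 2.32 and 4.46 CPM. Their receptor Cxcr2 was at 121 CPM in B27 and at most 1.97 CPM elsewhere. Ccl3 and Ccl4 were at 915 and 768 CPM against at most 6.47 and 6.86 CPM. The 4 neutrophil markers summed to 4445 CPM in B27 and to 11.9 to 158 CPM in the others. B27 was also the highest tumor for the T-cell sum (178 CPM, with the next at 69.6), the endothelial sum (683, next 358), the leukocyte sum (1377, next 1060.5), the dendritic-cell sum (59.2, next 55.7) and the fibroblast sum (12009, next 10259). Every endothelial and leukocyte gene was highest in B27, as were Cd3e, Cd3g, Cd4, Itgax and Col1a1. The other genes of the T-cell, dendritic-cell and fibroblast lists were higher in another tumor. Cd8a was at 1.504 CPM in B27 and 24.01 CPM in B14. Clec9a was at 0.4102 CPM in B27 and 5.594 CPM in B2. Dcn and Lum were at 1710 and 1331 CPM in B27 and 3237 and 1991 CPM in B13. The part of these sums and genes in the levels of B27 was not tested. Without B27, the mean of Cxcl2 over the tumors moved from 253 ± 754 CPM (SD, n = 9) to 1.796 ± 1.26 CPM (SD, n = 8), and Cxcl2 and Cxcl3, which missed the threshold with B27 in (edgeR adjusted p = 0.012 and 0.0176), were called higher (edgeR adjusted p = 6.38e-05 and 0.00149). Cxcl1 was not called with or without B27 (without it, log2 fold change 0.94, edgeR adjusted p = 0.433). Cxcl1, Cxcl2 and Cxcl3 lie in the same cluster and were high together, and their upstream stretches are therefore shown side by side, each 5′ to 3′ on the plus strand of GRCm38.p6 from RefSeq, with matches to the NF-κB letters (either strand, overlapping matches joined) in capitals. The stretch of Cxcl1 is chr5:90891136-90891204, that of Cxcl2 chr5:90903782-90903850 and that of Cxcl3 chr5:90786008-90786080, all upstream of the annotated start.
Cxcl1: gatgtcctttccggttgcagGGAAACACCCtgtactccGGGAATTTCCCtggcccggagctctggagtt
Cxcl2: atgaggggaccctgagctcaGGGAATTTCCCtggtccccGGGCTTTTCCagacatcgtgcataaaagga
Cxcl3: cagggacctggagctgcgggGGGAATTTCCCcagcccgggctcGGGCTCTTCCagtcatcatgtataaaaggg
All 3 hold the same 11 bases GGGAATTTCCC, whose first base is 71, 97 and 73 bases before the start site, and each holds another match. The other members with those letters were Ccl9, Ccl20, Cxcl10 and Ccr3.

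B2 held the lung chemokine Cxcl15 at 864 CPM and the mucosal chemokine Cxcl17 at 80.8 CPM, against at most 4.99 and 4.72 CPM in the other tumors. The 5 lung epithelium markers summed to 45404 CPM in B2 and to at most 86.9 CPM in the others (B13). The next highest tumor was B13 for Cxcl15 and B14 for Cxcl17, where the lung sum was 3.83 CPM. Their part in the Cxcl15 and Cxcl17 levels was not tested. With both B2 and B27 left out, 33 members were called between tumors and lines in place of 31. The share of all genes called in that fit is not given here, so the change is not a result about the members.

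**Figure D5:**
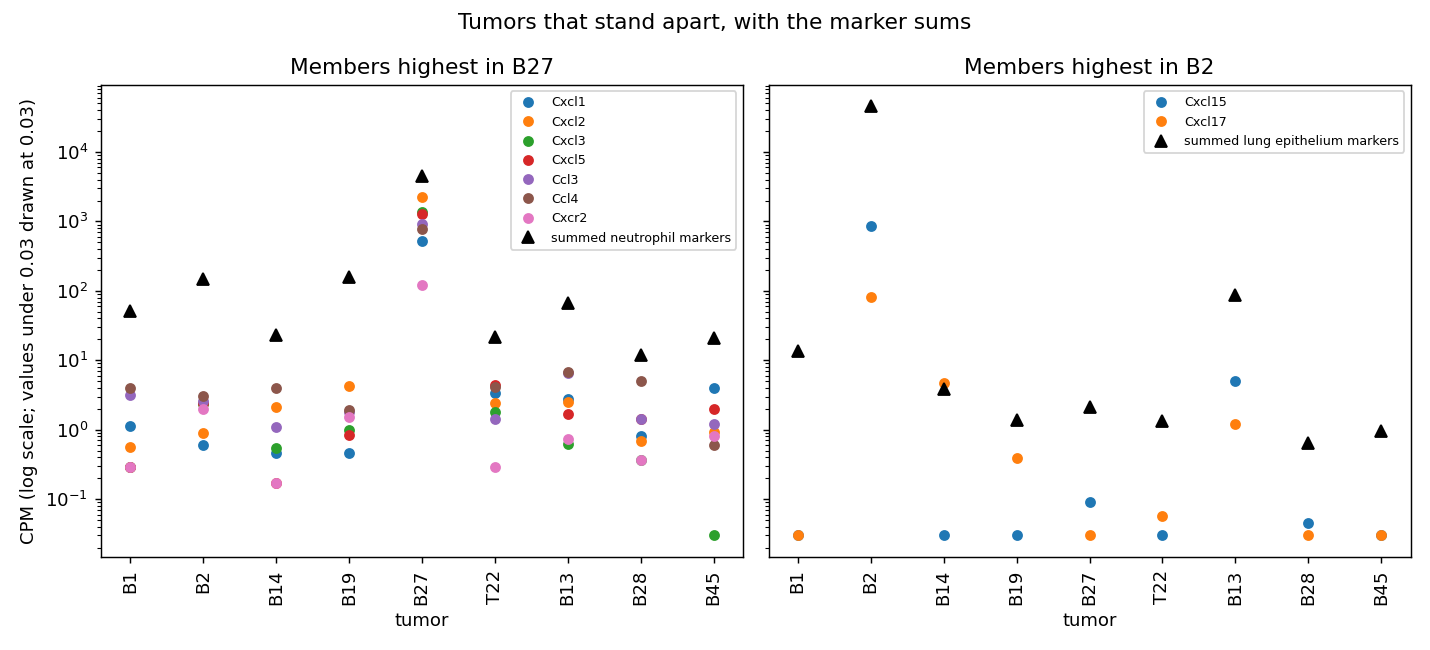
CPM on a log axis in the 9 tumors for the members highest in B27 (left) and in B2 (right), with the summed CPM of the neutrophil and lung epithelium markers as triangles. In B27 the 7 members and the neutrophil sum are all highest, and in B2 Cxcl15, Cxcl17 and the lung sum are.

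Neighbouring members differed in whether the lines held their RNA. Of the 41 members, 24 lie in 6 clusters of genes less than 1000000 bases apart. In the cluster at chr11:82035571-82116799 (GRCm38), Ccl2 and Ccl7 were read in all 6 lines while Ccl11, Ccl12 and Ccl8, in the same 81.2 kb, had at most 1 count in any line. In the next cluster on chromosome 11, Ccl9 had 112 to 258 counts in the lines while its neighbours Ccl6, Ccl3 and Ccl4 had at most 4 and Ccl5 was read in the NC lines, mainly in JB84 and JB93. Cx3cl1 (chr8:94772009-94782427) was read in every line, whereas Ccl22 on one side of it had no count and Ccl17 on the other had at most 11. Cxcl9 and Cxcl11 had no count in JB84 and JB93, which held 128 and 204 counts of their neighbour Cxcl10. In the cluster of chromosome 5 that holds Cxcl5, Cxcl3, Cxcl15, Cxcl1 and Cxcl2, the 4 neutrophil attractants were high in B27 while Cxcl15, between them, was at 0.0911 CPM. Cxcl12 stands alone at chr6:117168535-117181367 and Ackr3 at chr1:90203980-90216751.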

How the data were processed

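RNA was measured in 6 cell lines and 9 tumors. The authors aligned reads to mm10 with TopHat 2.0.12, discarded reads with mapping quality under 10 and nonprimary alignments, and deposited raw counts per gene from HTSeq-count. The strand setting is not given in the sources used here, so reads of overlapping antisense genes cannot be told apart. From these counts, edgeR 4.0.16 in R 4.3.3 tested BNC against NC lines (6 libraries) and tumors against the mean of both line groups (15 libraries), with TMM factors, filterByExpr at a minimum count of 10, a quasi-likelihood test and Benjamini-Hochberg adjustment over all genes tested. The SE is the log2 fold change over the square root of F. DESeq2 1.42.0 was an alternative. In simulated data, edgeR recovered 19% of 4-fold and 75% of 16-fold changes in the lines (12376 genes) and 55% and 90% in the tumors (15675 genes). The simulated libraries were independent and only genes with a mean over 1 CPM were changed. The real lines hold near-identical pairs and some members lie lower, so these rates need not hold for them. Totals of 8158740 to 23936922 counts set the counting precision, and floors of 3 counts cover counting error only. CPM per kb used the exon length of GENCODE M21, which limits comparison between genes where the transcripts used differ. Tumor columns were assigned by elimination, and 14 columns of DNA libraries were not used. Genes outside the members were named by the smallest p-values of their list or because a result turned on them. Some genes of the lists are not reported here. Members and lists were chosen with earlier results of these data known.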

Additional observations from a re-analysis of the deposited data

Results flagged for a closer look

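Each member was checked for a tumor far from the other 8 on the log2(CPM + 1) scale (Dixon's criterion at the 95% level), which chance meets in about 1 in 20 groups, and 13 of 41 members met it. The check was not made over all genes, and some members vary together, so 13 of 41 cannot be read as particular to chemokines. In 10 of the 13 the tumor was B27. It was the highest tumor for Ccl3 (6.47 CPM next against 915 CPM), Ccl4 (6.86 against 768 CPM), Ccl11 (8.69 against 118 CPM) and Ccl22 (5.54 against 29.9 CPM). It was also highest for Cxcl1 (518 CPM), Cxcl2 (2264 CPM), Cxcl3 (1384 CPM), Cxcl5 (1272 CPM) and their receptor Cxcr2 (121 CPM). For Cx3cr1 B27 was the lowest tumor, at 4.83 CPM, with the next at 43.8 CPM. B2 was highest for Cxcl15 (864 CPM) and Cxcl17 (80.8 CPM), and B19 for Ccl19, which guides Ccr7-bearing cells, at 9.37 CPM with the next tumor at 2.17 CPM.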

How the results depend on the processing

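Between the lines 1 member was called. DESeq2 called 7, an adjusted p under 0.05 gave 4, and the close pairs of lines summed gave 0 (DESeq2 on the same sums 3). The prefix of the column name as a covariate gave 0, and leaving out 1 line gave 0 to 6. The 6 came without JB87, where the NC group was only the near-identical JB84 and JB93. The replicate block gave 0, and 0 with JB97 as number 3. Deviations from the group mean correlated at 0.128 for JB81 with JB84, at -0.0861 for JB91 with JB87 and at -0.0937 for JB97, taken as number 3, with JB93. Each group has 3 lines, among them a near-identical pair, so these values do not decide whether the numbers mark a pairing. Over all genes, 136 were called by edgeR and 2017 by DESeq2. Unscaled library sizes moved the median log2 fold change of all genes to -0.14. Between tumors and lines 31 members were called, 25 to 33 when 1 library was left out, 25 with close pairs of lines summed (the calls of Ccl3, Ccl4, Ccl7, Ccl28, Cxcl5, Cx3cl1 and Cxcr2 were lost and 1 was gained) and 4 where at least 10 counts were required in every sample, a filter that removes genes absent from the lines. Shares of all genes are not given for these settings or for DESeq2 on the summed pairs. Their counts show how calls moved and nothing particular to the members. The log2 fold change of Cxcl12 in tumors, 0.04, turned to -0.0047 with unscaled library sizes and -0.21 with summed pairs (-0.12 with DESeq2). It was -2.60 against BNC lines alone and -0.35 without B2 and B27. With only the 5 tumors B2, B13, B14, B19 and B28, chosen because DNA libraries bear the same names and not by genotype, it was -0.034. It ranged from -0.24 to 1.27 when 1 library was left out. Ccl28 turned to -0.058 against NC lines alone. The cause was not tested. The prefix could not be fitted as a covariate in the tumors. Summed pairs with DESeq2, JB97 as number 3 and the tumor subsets were chosen after seeing the data.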

Other observations

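Cxcl13 and B-cell genes, looked at together after their values were seen, were high in the same tumors. Cxcl13 was at 192, 93.8 and 85.1 CPM in B2, B19 and B45, the 3 highest tumors for it, and at no more than 58.2 CPM in the other 6. The B-cell marker Cd79a was at 64.6, 23.4 and 23.2 CPM in those tumors and at most 4.01 CPM in the others, and Ms4a1 was at 23.6, 12.97 and 15.1 CPM and at most 1.23 CPM. Cxcr5, the receptor of Cxcl13, was at 10.1, 5.04 and 4.07 CPM there and had no count in any line.

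Cxcr6, the receptor of Cxcl16, was at 125 CPM in B27, and Ccrl2, an atypical receptor, at 190.4 CPM. In the lines Ccrl2 had 1, 2 and 0 counts in JB81, JB91 and JB97 and 38, 3 and 80 counts in JB84, JB87 and JB93, so that the same pair of NC lines was high as for Ccl5 and Cxcl10.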
